A study of Drosophila melanogaster with 2 samples.

Results

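Cuticle protein genes of Drosophila melanogaster were followed across 2 two-colour arrays of larval polyA RNA. The members were the probes whose single current gene symbol begins with Cpr, Lcp, Ccp84, Acp65A, Edg78 or Edg84, or is Pcp. This gave 87 probes for 87 genes, 1 probe a gene, among 11865 genes named by a single symbol on the array. Of the 87 genes, 52 had a value on both arrays, 26 on array 2 alone and 9 on neither.

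Each array set RNA of GMR X GFP-dASF/SF2 larvae against RNA of GMR X GFP-NLS larvae, the control. dASF/SF2 is an SR protein, an RNA-binding factor of pre-mRNA splicing. GMR, an enhancer that works in the developing eye, was carried by both crosses together with a GFP-tagged construct, in which NLS stands for a nuclear localisation signal. On array 1 the dASF/SF2 RNA carried Cy5 and the control RNA Cy3, and on array 2 the dyes were exchanged. The age of the larvae and whether the arrays shared an extract are not stated in the labels, so every spread below is that between 2 arrays and may be technical. The question was whether raised dASF/SF2 expression alters gene expression across the genome.

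The insect cuticle is made of chitin fibres and a large set of secreted proteins. Most of these proteins carry the Rebers-Riddiford domain, which binds chitin, and the Cpr symbols are given for it. The epidermis secretes a new cuticle at every moult under control of the steroid hormone ecdysone, and larval, pupal and adult cuticles draw on partly different genes. Many of the genes lie in tandem clusters of related copies, and a symbol such as Cpr49Af names the cytological band, 49A, where its gene lies.

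Values are log ratios on the deposited scale, whose base is not given. They were taken as Cy5 over Cy3, so the sign of array 2 was turned, and the median of each array was set to 0. Positive values stand for higher RNA in dASF/SF2 larvae if Cy5 was the numerator, and for lower RNA if Cy3 was. Nothing in the labels or the table settles this, and the ends of the scale are therefore called the positive and the negative side. In a whole-animal ratio, fewer epidermal cells and less RNA per cell cannot be told apart. Ratios carry no expression level, so the larval label could not be checked against stage markers. The 1 probe for SF2 itself, the gene of dASF/SF2, lay at -0.036 on array 1 and -0.135 on array 2 (limma adjusted p = 0.997). A change of SF2 RNA in either direction was thus not shown on these arrays.

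The measured cuticle protein genes lay mostly on the positive side of both arrays, with the highest single genes in the 65A cluster. On both arrays 33 of the 52 genes were positive, where 23.9% of all 9062 measured genes were, and 6 were negative on both, where 25.3% of all genes were. The remaining 13 had opposite signs on the arrays, as 50.1% of all genes did. The median over the 52 genes was 0.159 on array 1 and 0.147 on array 2, and that of their means was 0.113, against -0.0035 over all genes. A value of 0.113 would be a ratio of 1.08 if the scale were log2 and 1.30 if it were log10. These values depend on the array 2 values running by dye: read as already running by genotype, 7 genes were positive on both arrays, 6 were negative on both, and the median was -0.0275.

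No cuticle gene passed limma's test with Benjamini-Hochberg adjustment over all 9062 genes at 0.05, and 0% of all genes did. The adjusted p of the 52 genes by limma ran from 0.284 to 1. At an unadjusted limma p under 0.05 there were 15 cuticle genes on the positive side, where 4.47% of all genes were, and 1 on the negative side, where 2.34% were. Means of 0.2 or more were found for 19 cuticle genes, against 8.97% of all genes, and means of -0.2 or less for 3, against 4.34% of all genes. Across the 52 genes the arrays correlated with a Pearson r of 0.534 and a Spearman rho of 0.511, against 0.0675 and 0.0191 across all genes. These correlations are descriptions across genes that share both hybridisations and, within clusters, much of their sequence.

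**Figure D1:**
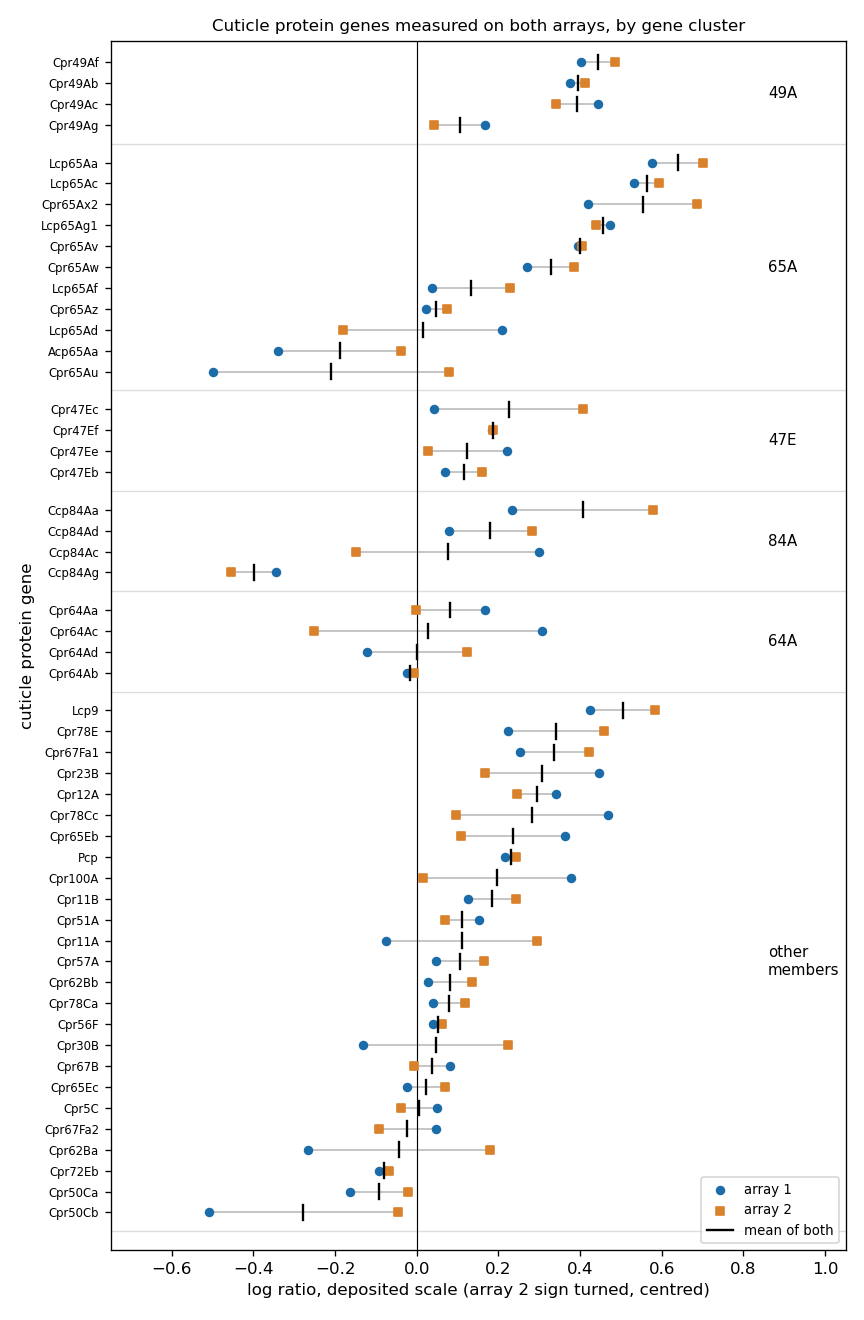
Log ratio (horizontal axis, deposited scale, array 2 turned and centred) of the 52 cuticle protein genes measured on both arrays, grouped by gene cluster; circles are array 1, squares array 2 and bars their mean. Both arrays of Lcp65Aa, Lcp65Ac, Cpr65Ax2 and Lcp9 lie at 0.42 or above, while Ccp84Ag lies below 0 on both.

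**Figure D2:**
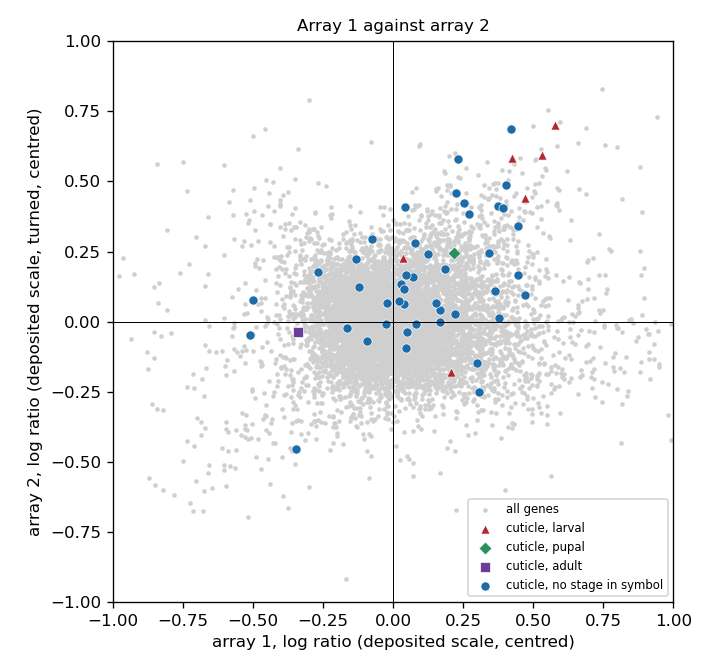
Array 1 (horizontal axis) against array 2 (vertical axis) for all 9062 genes in grey and the 52 cuticle genes by the stage in their symbol, in log ratios on the deposited scale; 53 genes lie outside the range drawn. Most cuticle genes (33 of 52) lie at the upper right, where both arrays are positive.

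The 65A cluster on chromosome arm 3L had the most members, 14 genes, of which 11 were measured on both arrays. It holds larval cuticle genes (Lcp65A), the adult cuticle gene Acp65Aa and several Cpr65A genes. Its median was 0.271 on array 1 and 0.384 on array 2, and the median of the means was 0.328. With array 2 read as running by genotype this median was -0.0565, and the mean of Lcp65Aa, the highest gene, was -0.0625. Under that reading 31 of the 52 cuticle gene means moved by more than the SD between arrays. The reading shifts each mean by the size of its array 2 value, so this count mostly follows how closely the arrays agreed. Of the 11 genes 8 were positive on both arrays, and Acp65Aa was negative on both.

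Lcp65Aa (CG7287), a larval cuticle protein gene, gave 0.577 on array 1 and 0.702 on array 2. The mean, 0.640 ± 0.0884 (SD, n = 2), was the highest of the 52 cuticle genes, and limma gave an adjusted p of 0.284. If the scale were log2 the ratio would be 1.56, and if log10 it would be 4.36. Lcp65Ac (CG6956), another larval gene of the cluster, gave 0.533 and 0.593, with a mean of 0.563 ± 0.0424 (SD, n = 2; limma adjusted p = 0.284). Cpr65Ax2 (CG18777), whose gene lies between them, gave 0.42 on array 1 and 0.687 on array 2, with a mean of 0.554 ± 0.189 (SD, n = 2; limma adjusted p = 0.318). These 3 genes, consecutive along the chromosome among those with a probe, had the 3 highest means of the 52.

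Lcp65Ag1 (CG10530), a larval gene elsewhere in the cluster, gave 0.472 on array 1 and 0.44 on array 2. Cpr65Av (CG32405) was nearly equal on the arrays, at 0.394 and 0.404. Cpr65Aw (CG32404), its neighbour, gave 0.271 and 0.384. These 3 genes had means of 0.456, 0.399 and 0.328, and their limma adjusted p-values were 0.326, 0.367 and 0.522.

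The remaining genes of 65A had lower means, from 0.133 for Lcp65Af to -0.211 for Cpr65Au. Lcp65Af (CG10533) was positive on both arrays, at 0.037 and 0.228, and Cpr65Az (CG12330) lay nearer 0, at 0.023 and 0.073. Lcp65Ad (CG6955) had opposite signs, 0.208 on array 1 and -0.18 on array 2, although it lies next to Lcp65Ac. Cpr65Au (CG18778) also split, with -0.499 on array 1 and 0.078 on array 2, and its mean of -0.211 ± 0.408 (SD, n = 2) was among the 3 lowest of the 52. Acp65Aa (CG10297), the adult cuticle gene, lies next to Lcp65Aa and gave -0.34 on array 1 and -0.038 on array 2. Neighbouring genes of this cluster thus took different sides, and the high values formed no unbroken run.

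Lcp65Ag1, Lcp65Ag2 and Lcp65Ag3 are close copies of one another, as are Cpr65Ax1 and Cpr65Ax2, and the probe sequences were not used here, so their values may mix signal of the copies. Lcp65Ag3 (CG18779) had a value on array 2 alone, -0.523, where Lcp65Ag1 had 0.44. Lcp65Ag2 (CG10534) and Lcp65Ae (CG10529) had no value on either array.

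**Figure D3:**
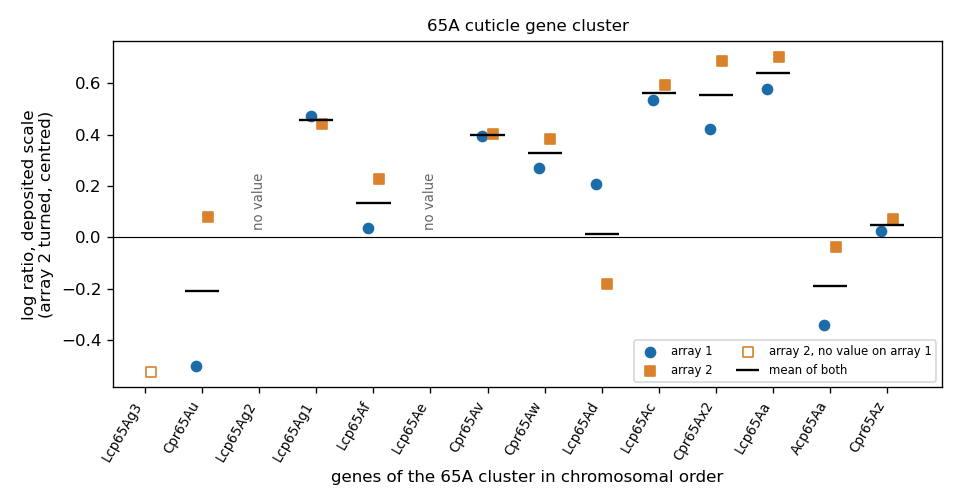
Log ratio (vertical axis, deposited scale, array 2 turned and centred) of the 14 genes of the 65A cluster in chromosomal order; circles are array 1, squares array 2, open squares genes without an array 1 value and bars the mean. Lcp65Ac, Cpr65Ax2 and Lcp65Aa stand highest, next to Acp65Aa, which is negative on both arrays.

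In the 49A cluster, on arm 2R, 4 of the 8 genes were measured on both arrays and all 4 were positive on both. Array 1 gave a median of 0.389 and array 2 one of 0.378. The median of the means was 0.393, above that of 65A, 0.328. Cpr49Af (CG8510) was highest, with 0.403 on array 1 and 0.486 on array 2 and a mean of 0.445 ± 0.0587 (SD, n = 2; limma adjusted p = 0.329). Cpr49Ab (CG30042) gave 0.374 and 0.413, and Cpr49Ac (CG8502) 0.444 and 0.342. These 3 genes, all at an unadjusted limma p under 0.05, had nearly equal means of 0.445, 0.394 and 0.393. Cpr49Ag (CG8511), the lowest of the cluster, gave 0.166 and 0.043. Of the other members, Cpr49Ah (0.357), Cpr49Ad (0.179) and Cpr49Ae (-0.185) had a value on array 2 alone, and Cpr49Aa had none.

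The 47E cluster, also on 2R, had 7 genes, and the 4 measured on both arrays were all positive on both, with a median of 0.128 on array 1 and 0.173 on array 2. Cpr47Ec (CG9077) had the highest mean, 0.225 ± 0.258 (SD, n = 2), which rested on array 2, with 0.042 on array 1 and 0.407 on array 2. Cpr47Ef (CG13214) gave 0.185 and 0.186, the closest agreement of any member. Cpr47Eb (CG13224) was lowest, at 0.07 on array 1 and 0.16 on array 2. None of these 4 genes was at an unadjusted limma p under 0.05.

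The 84A cluster on 3R lies within the Antennapedia complex, between the homeotic genes lab and pb, and its members stood at both ends of the scale. It counted 7 genes, 6 Ccp84A genes and Edg84A, of which 4 were measured on both arrays. Ccp84Aa (CG2360) gave 0.233 on array 1 and 0.579 on array 2, with a mean of 0.406 ± 0.245 (SD, n = 2; limma adjusted p = 0.514). Ccp84Ag (CG2342) gave -0.345 and -0.454, and its mean of -0.40 ± 0.0771 (SD, n = 2; limma adjusted p = 0.379) was the lowest of the 52 genes. The 2 genes lay on opposite sides of 0 on both arrays, and Ccp84Ag was the cuticle gene on the negative side at an unadjusted limma p under 0.05. Ccp84Ad (CG2341) lay between them at 0.079 and 0.281, and Ccp84Ac (CG1327) had opposite signs, 0.30 and -0.148. The cluster's medians were 0.156 on array 1 and 0.0665 on array 2.

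The 64A cluster on 3L lay near 0, with all 4 of its genes measured on both arrays and medians of 0.071 on array 1 and -0.0055 on array 2. Cpr64Aa (CG15006) was highest, at 0.167 and -0.003, and Cpr64Ab (CG15007) lowest, at -0.025 and -0.008. Cpr64Ac (CG15008) gave 0.307 on array 1 and -0.251 on array 2, and Cpr64Ad (CG1259) gave -0.123 and 0.123. In 3 of the 4 genes the arrays disagreed in sign.

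Outside these 5 clusters 25 genes were measured on both arrays. On both arrays 15 of them were positive and 3 negative, where 23.9% and 25.3% of all genes were. Array 1 gave them a median of 0.049 and array 2 one of 0.117. Cpr78E (CG7160) gave 0.223 on array 1 and 0.459 on array 2, and Cpr12A (CG15757), on the X chromosome, 0.342 and 0.246. Cpr23B (CG2973), on 2L, gave 0.445 and 0.166. All 3 were at an unadjusted limma p under 0.05, with adjusted p from 0.559 to 0.633 by limma. Cpr67Fa1 (CG7941) also was, at 0.252 and 0.422, while its neighbour Cpr67Fa2 (CG18349) gave 0.046 and -0.093. On the negative side Cpr50Cb (CG6305) had the second lowest mean, -0.278 ± 0.327 (SD, n = 2), from -0.509 on array 1 and -0.047 on array 2. Cpr50Ca (CG13338) of the same band gave -0.164 and -0.022, and Cpr72Eb (CG12255) -0.092 and -0.069.

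Several of these 25 genes were high on a single array. Cpr78Cc (CG7658) gave 0.469 on array 1 and 0.096 on array 2, Cpr65Eb (CG8638) 0.362 and 0.109, and Cpr100A (CG12045) 0.377 and 0.014. Cpr11A (CG2560), by contrast, gave -0.076 and 0.295, Cpr30B (CG3818) -0.132 and 0.224, and Cpr62Ba (CG13934) -0.267 and 0.178. In each of these last 3 genes the arrays disagreed in sign. Cpr11B (CG2555), close to Cpr11A in band, was positive on both, at 0.125 and 0.242. The genes Cpr51A, Cpr57A, Cpr62Bb, Cpr78Ca, Cpr56F, Cpr67B, Cpr65Ec and Cpr5C had means between 0.0055 (Cpr5C) and 0.11 (Cpr51A).

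Genes outside the 65A cluster also lay mostly on the positive side. Without the 11 genes of 65A the median of the means was 0.11 over 41 genes, with 0.125 on array 1 and 0.123 on array 2. Of the 41 genes 25 were positive on both arrays and 5 negative, where 23.9% and 25.3% of all genes were. Without Lcp9 as well, which left 40 genes, the median was 0.108. By chromosome arm the median of the means was 0.231 on 2L (3 genes), 0.12 on 2R (14 genes), 0.0798 on 3L (26 genes), 0.18 on 3R (5 genes) and 0.147 on X (4 genes). On 3L outside 65A it was 0.037 over 15 genes. The 52 probes lay in 23 of the 24 blocks of the probe numbering, with at most 6 in 1 block, and those of 65A in 9 blocks.

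Larval genes were compared with pupal and adult ones by the stage that the symbol names, with Edg78E and Edg84A, whose symbols name no stage, placed in the pupal class as genes known from the prepupal epidermis. Larval symbols (Lcp) had 9 genes, 6 of them measured on both arrays, with a median of 0.449 on array 1 and 0.512 on array 2. All 6 were positive on array 1, where 49.2% of all genes were, and 5 on array 2. Besides the 65A genes this class holds Lcp9 (CG16914), a larval cuticle peptide gene of arm 2R, with 0.425 and 0.584 and a mean of 0.505 ± 0.112 (SD, n = 2; limma adjusted p = 0.318). Larval genes nevertheless ranged widely, from a mean of 0.014 for Lcp65Ad to 0.64 for Lcp65Aa. Lcp65Ag3, the larval gene with a value on array 2 alone, gave -0.523, the lowest of the 26 cuticle values measured in this way.

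Of the pupal and adult genes only Pcp and Acp65Aa were measured on both arrays. Pcp (CG3440), the pupal cuticle protein gene that lies inside an intron of Gart, gave 0.217 on array 1 and 0.244 on array 2, with a mean of 0.231 ± 0.0191 (SD, n = 2; limma adjusted p = 0.738). The adult gene Acp65Aa had a mean of -0.189 ± 0.214 (SD, n = 2; limma adjusted p = 0.921). The larval median exceeded the median of these 2 genes by 0.51 on array 1 and by 0.409 on array 2. With array 2 read as running by genotype, the difference of the medians was 0.036, against 0.46 in the reported reading. An exact sign-flip test over 2 arrays cannot go below a p of 0.5, and no other test of this difference was made. The values of Lcp65Ad and Lcp65Af lay below those of Pcp on both arrays, so the stages overlapped. The 2 ecdysone-dependent genes of the pupal class had a value on array 2 alone: Edg78E (CG7673) gave -0.187 and Edg84A (CG2345) -0.038.

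The 44 genes whose symbol names no stage had a median of 0.104 on array 1 and 0.12 on array 2. On both arrays 27 of them were positive and 5 negative, where 23.9% and 25.3% of all genes were. These 44 include the 5 Cpr genes of 65A measured on both arrays, with medians of 0.271 and 0.384. The 5 larval genes of that cluster measured on both arrays had medians of 0.472 and 0.44. The larval cuticle genes Lcp1 to Lcp4 are among 11 further genes that the reference table lists under the same symbols. They had no probe with a single symbol in the table used and were not analysed here.

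Members with a value on array 2 alone lay more on the negative side, as did all named probes measured in this way. Their 26 values on array 2 had a median of -0.0625, and 10 were positive and 16 negative. On the same array the 52 members measured on both arrays had a median of 0.147, with 39 positive and 13 negative, where 49.2% of all genes measured on both arrays were positive. All 2344 named probes with a value on array 2 alone had a median of -0.07, and 35.6% of them were positive, against 38.5% of the 26 cuticle genes. The 76B cluster on 3L was measured in this way alone: Cpr76Bb gave -0.52, while Cpr76Ba (0.135), Cpr76Bc (0.067) and Cpr76Bd (-0.066) lay nearer 0. Cpr66D and Cpr72Ec encode proteins of the corneal lens, the cuticle over the adult eye, and gave -0.101 and 0.135 on array 2. Ccp84Ab (-0.106) and Ccp84Ae (-0.185) were negative, as were most probes with a value on array 2 alone. Of the Ccp84A genes measured on both arrays, Ccp84Ag was negative on both and Ccp84Ac had opposite signs. Ccp84Aa and Ccp84Ad were positive on both. Cpr47Ed (0.09) and Cpr47Eg (0.075) were positive, as were the 47E genes measured on both arrays. The 9 genes with no value on either array were Cpr30F, Cpr47Ea, Cpr49Aa, Cpr62Bc, Lcp65Ae, Lcp65Ag2, Cpr66Cb, Cpr73D and Cpr92F. Array 1 gave a value for 59.8% of the cuticle probes and 74.8% of all named probes, and array 2 for 89.7% and 91.8%. What part this difference in coverage had in the medians above was not tested.

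**Figure D4:**
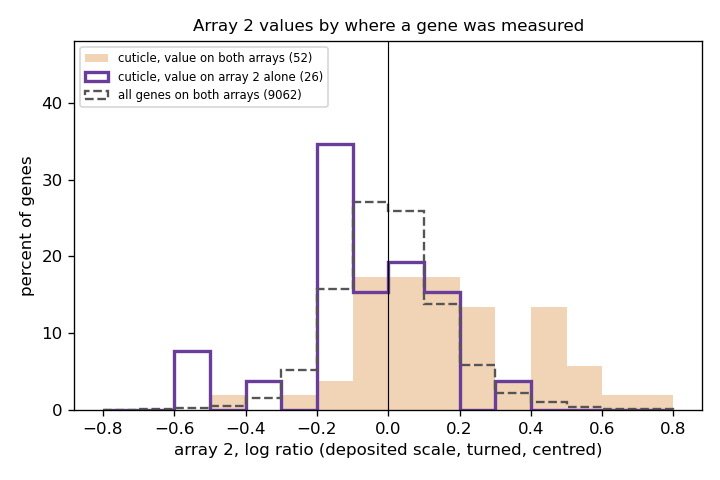
Percent of genes (vertical axis) by log ratio on array 2 (horizontal axis, deposited scale, turned and centred, values beyond the axis placed in the end bins) for cuticle genes with a value on both arrays (filled), cuticle genes with a value on array 2 alone (solid line) and all genes on both arrays (dashed line). The 26 cuticle genes with a value on array 2 alone centre on -0.0625, below the 52 others at 0.147. All 2344 named probes with a value on array 2 alone, not drawn, had a median of -0.07.

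Structural cuticle proteins outside the member symbols were taken from a list of Tweedle (Twdl), Vajk and obstructor (obst) genes with Gasp, Acp1, Crys and resilin. The Tweedle genes encode cuticle proteins of a separate family, and the obstructor genes and Gasp encode chitin-binding proteins of another domain. Of 42 listed genes 27 were measured on both arrays, with a median of the means of -0.017, and 5 were positive on both arrays against 7 negative, where 23.9% and 25.3% of all genes were. Vajk2 (0.454 on array 1 and 0.585 on array 2) and Vajk3 (0.409 and 0.505) were highest. Acp1 was lowest by mean, from -1.11 on array 1 and 0.137 on array 2, followed by obst-J (-0.502 and -0.365). No member passed limma's test over all genes; at an unadjusted p under 0.05 there were 2 on the positive side, where 4.47% of all genes were, and 4 on the negative side, where 2.34% were.

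Of 23 listed regulators of moulting 16 were measured on both arrays, with medians of 0.185 on array 1 and -0.0743 on array 2. The arrays had opposite signs for 12 of the 16, where 50.1% of all genes had. EcR, the ecdysone receptor gene, gave 0.583 and 0.165, and grh, which encodes the epidermal transcription factor Grainy head, gave 0.37 and 0.227. These 2 were the highest and the only ones at an unadjusted limma p under 0.05. The lowest were Hr78 (0.023 and -0.176), a nuclear receptor gene, and CCAP (-0.027 and -0.085), a neuropeptide gene of ecdysis.

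Markers of the epidermis and of other tissues were read on the same arrays. Of 7 epidermis and tendon markers 6 were measured, and all 6 were positive on both arrays, where 23.9% of all genes were. Array 1 gave these 6 markers a median of 0.153 and array 2 one of 0.194. The highest was serp, a chitin deacetylase gene, at 0.31 and 0.345, and the lowest, verm, lay near 0 at 0.016 and 0.013. The 3 midgut markers were negative on both arrays, where 25.3% of all genes were, with medians of -0.848 and -0.677. The fat body markers Lsp2 (0.028 and -0.031) and Fbp1 (-0.062 and -0.07) lay near 0. The wing disc markers had medians of 0.053 and 0.008, and of the tracheal markers btl, measured on both arrays, gave 0.132 and -0.306. The part of a differing tissue make-up in the cuticle values was not tested.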

How the data were processed

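Log ratios of the 2 channels were deposited by the authors for 15744 probes on 2 arrays. The unit was recorded as a score, because the deposited table names no log base. No label or header names the scanner, the background correction, the normalization or the channel on top of the ratio. Blank cells (3996 on array 1 and 1450 on array 2) and 7 cells with the code -10000 were treated as missing. No value column was left unused (0 columns).

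Probes with a gene in the platform annotation and a value on both arrays (9813) entered the comparison. Symbols were updated through gene identifiers, locus tags and synonyms of the Release 6 reference table, and 75 probes kept the annotation's own symbol. The 960 features left unnamed at the same 40 places in each of 24 blocks were left out. Array 2 was turned and each array was centred on its median. Probes of a gene were averaged (9062 genes) and tested against 0 with limma 3.58.1 in R 4.3.3 (lmFit, eBayes, two-sided, Benjamini-Hochberg over all genes, 1 residual degree of freedom). The fit was tested on simulated data whose shifts were larger than any cuticle gene mean. That test therefore does not show how the fit handles changes of the size reported here. The number of arrays, 2, limits the precision.

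The cuticle genes, the stages and the other lists were chosen with earlier results of these data known. All members measured on both arrays could be named. Values of both arrays were given for the 3 highest and 3 lowest means, for members at an unadjusted p under 0.05, for the highest and lowest of each cluster of at least 3 measured genes and for genes with a stage by symbol, Edg78E and Edg84A included as pupal, and for the 2 highest and 2 lowest of the other structural and regulator lists. Further members and the tissue markers were named after their values had been seen. The alternatives were the reading by genotype, no centring, centring on all features, keeping the repeated features, a running median over 201 probes in probe order, probes in place of gene means, each array alone and probes with a value on 1 array alone.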

Additional observations from a re-analysis of the deposited data

Results flagged for a closer look

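Values on array 2 alone lie outside the comparison of the arrays. Of the 26 cuticle genes measured in this way, 4 lay farther from 0 than 95% of the genes measured on both arrays did on array 2, a limit of 0.328. These were Lcp65Ag3 at -0.523, Cpr76Bb at -0.52, Cpr31A at -0.329 and Cpr49Ah at 0.357. No dye-swapped value was present for these 4 genes. The limit comes from genes measured on both arrays. All 2344 named probes with a value on array 2 alone ran from -1.244 to 1.858, with a median of -0.07. Their share beyond the limit was not counted, so the 4 genes cannot be set against it. A limma fit that included the probes with a value on 1 array alone called 0 of 12255 probes, with a lowest adjusted p of 0.0668 and 930 probes at an unadjusted p under 0.05.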

How the results depend on the processing

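Read as running by genotype, the median over the cuticle genes was -0.0275, and 7 genes were positive on both arrays. Cluster medians under that reading were -0.0228 for 47E, 0.0158 for 49A, -0.0565 for 65A and -0.0233 for 84A, and the larval median exceeded the pupal and adult one by 0.036. Cuticle genes at an unadjusted limma p under 0.05 then numbered 1, against 16 in the reported fit and 17 to 19 under the other 4 settings; this count was added after seeing the data. Without centring limma called 1 probe and 1 gene, CG6271, which is no cuticle gene. The lowest adjusted p of genes by limma ran from 0.0356 without centring to 0.996 by genotype, and that of probes from 0.0283 to 0.997. On each array alone the cuticle median was 0.147 to 0.159, the number of negative genes 12 to 13, the 49A median 0.378 to 0.389 and the 64A median -0.0055 to 0.071. The other counts and medians for the cuticle genes moved by less than the spread between arrays, or by less than 1.5 times for counts. For each array alone this says little, because the spread is that between the same 2 arrays and the mean of a gene cannot move by more. The medians subtracted in centring were 0.007 on array 1 and -0.003 on array 2, so leaving it out could change the cuticle medians only a little. The cause was not tested. Each array's ratio already pairs the 2 crosses, and there is 1 group of ratios, so no further pairing was made. With 2 arrays and no signal over background in the table, the depth behind single values is unknown.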
